A study of Xenopus laevis with 6 samples.

Results

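Known regulators of the embryonic epidermis, 7 in number, were looked up by name in a count table of Xenopus laevis, the African clawed frog, and 5 of them had rows: tp63, grhl2, grhl3, ovol2 and esrp1. Rows were kept where the name without the ending L or S was one of tp63, grhl1, grhl2, grhl3, ovol1, ovol2 and esrp1. Each gene found was listed as both an L and an S homeolog, the copies that this allotetraploid frog carries on its L and S subgenomes, which gave 10 rows of the 45090 in the table. No row had the name grhl1 or ovol1, and these genes were not analysed here.

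RNA sequencing of poly(A)-selected libraries from whole wild-type embryos compared intact with half-size embryos. All were collected at the end of gastrulation, stage 12.5 of Nieuwkoop and Faber. Half-size embryos were twins that had grown from single blastomeres after the first 2 cells were separated. There were 3 libraries of each kind, and the intact and half-size libraries that share a number are of sibling embryos, called pairs 1, 2 and 3 here. The labels give neither the number of embryos in a library nor the parents of each pair. Libraries held between 20069300 and 29284864 counts, and 1 count stood for 0.0348 to 0.0501 CPM (counts scaled to library size, with TMM factors). Counts are not independent molecules, so intervals and floors given here cover counting error only.

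At this stage the non-neural ectoderm is an epithelium with an outer layer and an inner, sensorial layer. tp63 encodes a transcription factor that marks basal cells of stratified epithelia and is needed to form them in the mouse. The grainyhead-like factors grhl2 and grhl3 activate genes of cell junctions and the skin barrier, and the mouse needs both for closure of the neural tube. The zinc finger factor ovol2 represses mesenchymal genes in mammalian epithelia, and esrp1 encodes an RNA-binding protein that directs epithelial forms of splicing in mammals.

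Expression of the S homeolog of tp63 was several-fold lower in half-size embryos of every pair. It was at 70.1, 89.5 and 58.3 CPM in the intact embryos of pairs 1, 2 and 3, and at 8.30, 30.2 and 7.21 CPM in their half-size siblings. The highest half-size library therefore lay below the lowest intact library, and replicate 2 was the highest in both groups. Intact libraries averaged 72.6 ± 15.8 CPM and half-size ones 15.2 ± 12.9 CPM (SD, n = 3). The fall was 8.44-fold in pair 1, 2.97-fold in pair 2 and 8.08-fold in pair 3, so it was shallowest in pair 2.

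The test of this difference depended on whether the pairs entered the fit. With the group as its only term, edgeR's quasi-likelihood test gave tp63.S a log2 fold change of −2.26 ± 0.55 (SE) and an adjusted p of 0.9998 (unadjusted p = 0.00411). That fit called 0 of 21673 genes tested, 0%, at an adjusted p of 0.05, and 776 genes, 3.58%, had an unadjusted p below 0.05. With the replicate number as a block, called the paired fit here, tp63.S fell by 5.70-fold (log2 fold change −2.51 ± 0.25 SE, adjusted p = 0.000613). The paired fit called 3.93% of all genes tested as lower and 1.99% as higher in half-size embryos. DESeq2 called tp63.S without pairing as well (adjusted p = 0.0113), where it called 0.24% of genes in either direction, while limma-voom without pairing called 0% (821 genes had an unadjusted p below 0.05). In the authors' deposited table tp63.S has a log2 fold change of −2.25 and an adjusted p of 5.08e-05.

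The genes with a deeper fall than tp63.S all had fewer counts. Of 21673 genes, 12 that were called in the paired fit had a lower log2 fold change. Among the 4495 genes whose mean over the 6 libraries was at least that of tp63.S, 43.9 CPM, tp63.S had the lowest log2 fold change, and the next lowest was −1.67. Whole embryos were sequenced, so fewer cells expressing a gene and less RNA per cell cannot be told apart, here and for every gene below.

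**Figure D1:**
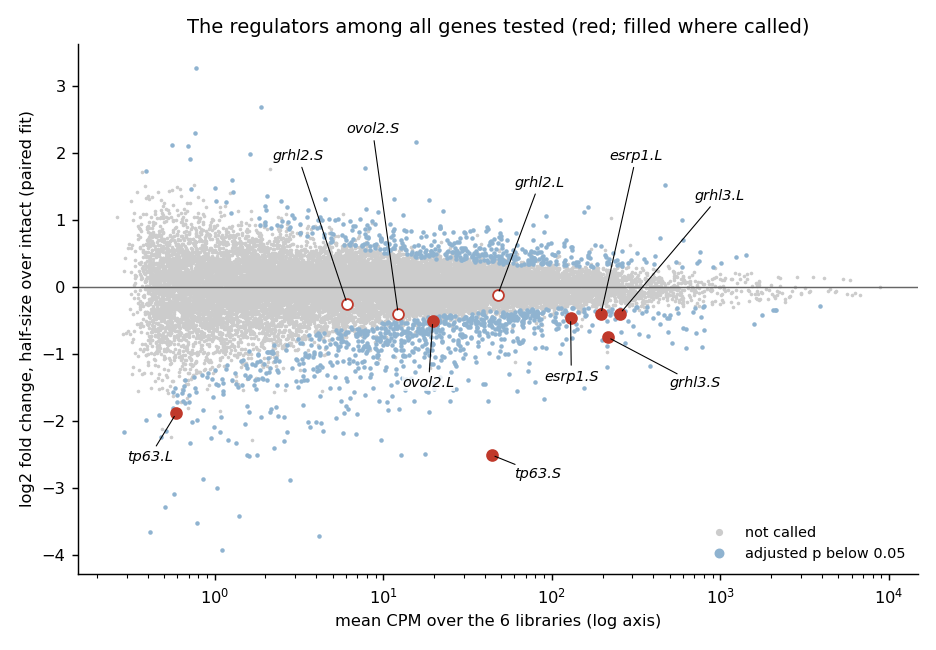
Log2 fold change of half-size over intact embryos in the paired fit, against the mean CPM over 6 libraries on a log axis, for 21673 genes. Grey points were not called, blue points had an adjusted p below 0.05, and the 10 epidermal regulators are red circles, filled where called. The tp63.S point lies at −2.51 and stands apart from genes of like or higher mean CPM.

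The L homeolog of tp63 was close to the limit of detection. The intact libraries of pairs 1, 2 and 3 held 5, 62 and 9 counts, and the half-size ones 0, 11 and 5. Replicate 2 again held the highest value of each group, and the groups overlapped, at 0.208 to 2.15 CPM in intact libraries and up to 0.551 CPM in half-size libraries. In pair 1, where the half-size library had no count, the intact level was 1.62-fold that of 3 counts, taken as the floor of a library. That ratio leaves out the counting error of the 5 intact counts, so it is not a lower bound. The paired fit gave tp63.L a log2 fold change of −1.89 ± 0.47 (SE, adjusted p = 0.0419). The gene was no longer called without replicate 3 (adjusted p = 0.0786), and without replicate 2 it did not pass the filter on low counts. DESeq2 with the block gave it no adjusted p. In the fit without pairing its log2 fold change of −1.98 became −0.41 without intact replicate 2 and −3.21 without half-size replicate 2. The S homeolog held 97.4% to 100% of the tp63 counts in the 6 libraries.

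Of the grainyhead-like genes, both grhl3 homeologs fell in the paired fit and neither grhl2 homeolog was called. For the S homeolog of grhl3, the intact embryos of pairs 1, 2 and 3 had 229.9, 219.04 and 356.005 CPM and the half-size ones 132.3, 133.8 and 213.3 CPM. The groups did not overlap, although half-size replicate 3 came close to intact replicate 2, and replicate 3 was the highest of each group. Its fall was nearly the same in each pair, at 1.74-fold, 1.64-fold and 1.67-fold. The paired fit gave a log2 fold change of −0.75 ± 0.07 (SE, adjusted p = 0.000685). Without pairing the estimate was −0.75 ± 0.26 (SE) and the adjusted p was 0.9998 (unadjusted p = 0.0225). In the authors' deposited table grhl3.S has a log2 fold change of −0.74 and an adjusted p of 1.

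The L homeolog of grhl3 fell less. Its levels were 290.97, 202.4 and 377.9 CPM in intact embryos of pairs 1, 2 and 3, against 201.7, 179.3 and 269.1 CPM. The groups overlapped, because replicate 3 was high in both and intact replicate 2 was as low as half-size replicate 1. The paired fit gave −0.40 ± 0.09 (log2, SE, adjusted p = 0.0248), which did not hold without replicate 1 (adjusted p = 0.0585) or without replicate 3 (adjusted p = 0.126).

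The share of grhl3 counts on the S homeolog was lower in the half-size library of each pair. Intact embryos of pairs 1, 2 and 3 had 44.1%, 52.0% and 48.5%, and half-size embryos had 39.6%, 42.7% and 44.2%. The exact binomial 95% intervals of intact and half-size libraries did not overlap in any pair. In pair 3, for example, they were 47.7% to 49.3% and 43.4% to 45.1%. The mean difference over pairs was −6.02 percentage points ± 2.79 (SD, n = 3), and a two-sided exact sign-flip permutation test over the 3 pairs gave p = 0.25, the smallest p that 3 pairs allow. The S shares of grhl2 and esrp1 were also lower in all 3 pairs, with the same p, but their intervals overlapped in every pair. In pairs 1, 2 and 3 the differences were −1.16, −0.153 and −1.74 percentage points for grhl2 and −0.498, −2.23 and −0.281 for esrp1. The tp63 share was lower in 1 pair and the ovol2 share in 2. In pair 2 the ovol2 share was higher in the half-size library, 38.3% against 27.0%. Its intervals there, 33.6% to 43.3% and 23.6% to 30.6%, did not overlap either, with a difference opposite in sign to that of grhl3. The sources used here do not give the lengths of the gene models, so a share of counts is not a share of transcripts. How the counting treated reads from near-identical stretches of the copies was not given, so a share may leave such reads out or misplace them.

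**Figure D2:**
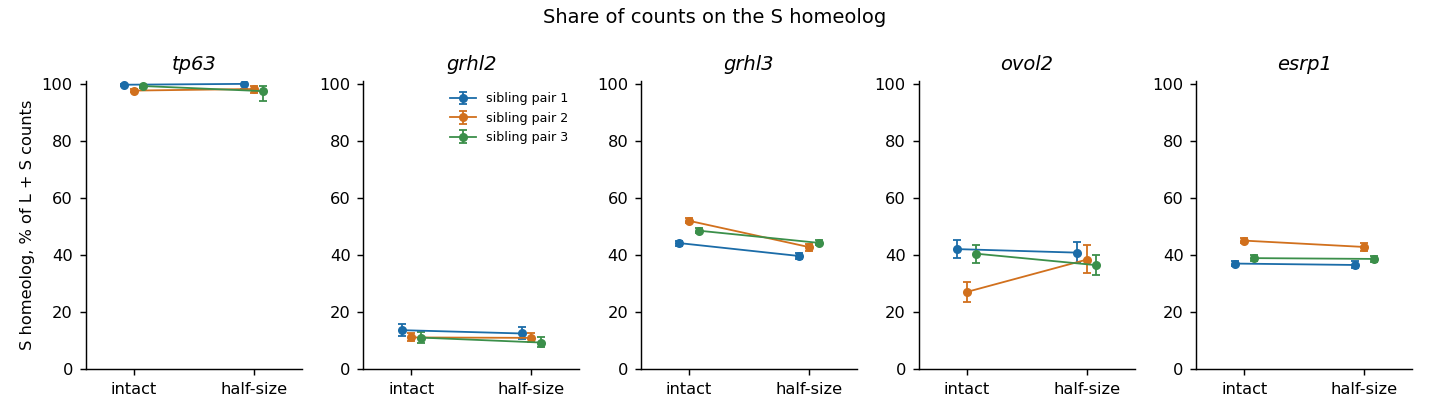
Share of the L plus S counts held by the S homeolog, in percent, in intact and half-size libraries for each of the 5 genes; lines join libraries of a pair and bars are exact binomial 95% intervals. The grhl3, grhl2 and esrp1 shares were lower in the half-size library of all 3 pairs, with overlapping intervals in every pair for grhl2 and esrp1. For tp63 nearly all counts lay on the S homeolog in every library.

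Expression of grhl2 differed between replicates more than between groups. The L homeolog was at 40.9, 62.4 and 44.3 CPM in intact embryos of pairs 1, 2 and 3, and at 34.97, 65.6 and 38.9 CPM in half-size ones. Both replicate 2 libraries lay above all others, and pair 2 was the pair in which the half-size library was not lower. The replicate number held 93.4% of the sum of squares of log2 CPM for grhl2.L and the group 2.83%, whereas for tp63.S the replicate number held 16.3% and the group 77.9%. This was not particular to grhl2, as the replicate number also held more than the group for tp63.L, grhl3.L, ovol2.L and ovol2.S. The paired log2 fold changes were −0.11 ± 0.10 (SE, adjusted p = 0.552) for grhl2.L and −0.25 ± 0.17 (SE, adjusted p = 0.415) for grhl2.S. The S homeolog ranged from 5.47 to 7.75 CPM among intact libraries and from 3.96 to 8.01 CPM among half-size ones, so these ranges overlapped.

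The L homeolog of ovol2 fell in the paired fit, and the S homeolog moved in opposite directions in different pairs. Levels of ovol2.L in pairs 1, 2 and 3 were 25.1, 16.6 and 27.6 CPM for intact and 17.2, 12.3 and 19.1 CPM for half-size embryos. Every half-size library was below its own sibling library, although the groups overlapped through the low intact replicate 2. The paired log2 fold change of ovol2.L was −0.51 ± 0.11 (SE, adjusted p = 0.0235), and with any 1 pair left out the call was lost (adjusted p = 0.0570, 0.0728 and 0.103 without replicates 1, 2 and 3). Levels of ovol2.S were 18.2, 6.15 and 18.7 CPM for intact and 11.9, 7.66 and 10.9 CPM for half-size embryos of the same pairs. Intact replicate 2 was the lowest library of all, and pair 2 was the pair in which the half-size library was higher. The paired estimate for ovol2.S was −0.40 ± 0.19 (log2, SE, adjusted p = 0.247), and without replicate 2 it was −0.70 with an adjusted p of 0.0265.

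Both homeologs of the splicing regulator esrp1 were lower in half-size embryos, with no overlap between groups. In pairs 1, 2 and 3 esrp1.L was at 254.3, 185.9 and 230.2 CPM in intact and at 159.7, 171.9 and 171.2 CPM in half-size embryos. Intact replicate 2 was again the lowest of its group, and the half-size libraries lay close together. For esrp1.S, intact libraries lay between 146.4 and 152.2 CPM, and the half-size libraries of pairs 1, 2 and 3 had 91.7, 128.5 and 107.6 CPM. The intact libraries were thus nearly equal and the spread lay in the half-size group. The paired log2 fold changes were −0.40 ± 0.10 for esrp1.L and −0.46 ± 0.10 for esrp1.S (SE, adjusted p = 0.0423 and 0.0191). Neither was called without replicate 1 (adjusted p = 0.128 for esrp1.L and just over the threshold for esrp1.S) or without replicate 3 (adjusted p = 0.150 and 0.0699).

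**Figure D3:**
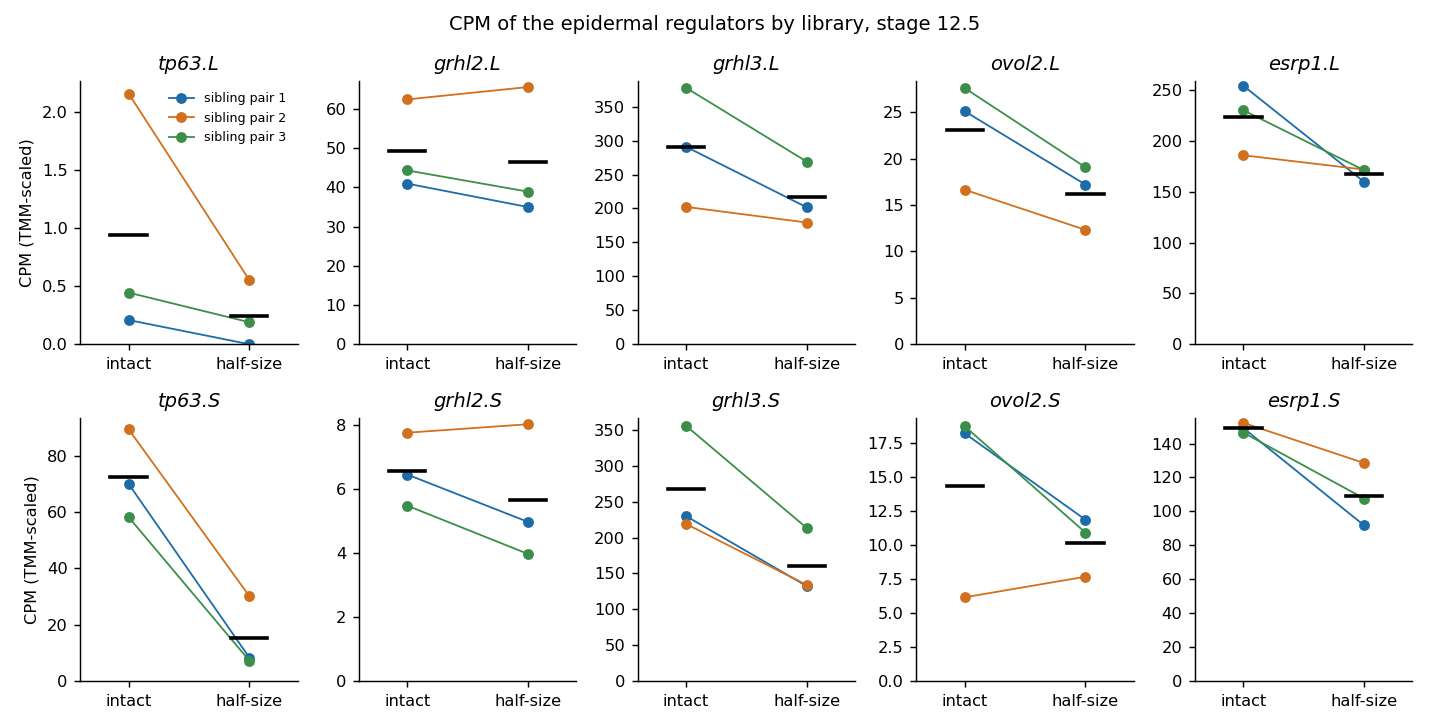
CPM of each of the 10 regulators in the 6 libraries, L homeologs above and S homeologs below; coloured lines join the intact and half-size library of a pair and black bars are group means over 3 libraries. The half-size values of tp63.S, grhl3.S, esrp1.L and esrp1.S lie below all intact values, and the pair 2 lines of grhl2.L, grhl2.S and ovol2.S rise.

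Over the 10 regulators the paired fit gave a negative log2 fold change to each, and all 10 had passed the filter on low counts. Of them, 7 were called as lower and 0 as higher, against 3.93% of all genes called as lower. Their median was −0.43, beside 0.00 over all genes tested. The ranges of the groups did not overlap, with half-size below intact, for 4 of the 10 and for 4.9% of all genes. All 3 half-size libraries were below their sibling libraries for 7 of the 10 and for 22.6% of all genes. L and S homeologs are copies of 1 gene, so the 10 rows stand for 5 genes, and they had been chosen with earlier results of these data known. The number called fell to 3 without replicate 1 (tp63.L, tp63.S and grhl3.S), to 6 without replicate 2 and to 2 without replicate 3 (tp63.S and grhl3.S). Beside these, 3.66%, 3.41% and 1.56% of all genes were called as lower. Without replicate 2 the 6 included ovol2.S, which was not among the 7. There ovol2.L was not called and tp63.L did not pass the filter on low counts. In the fit without pairing 0 of the 10 were called and 4 had an unadjusted p below 0.05, which were tp63.S, grhl3.S, esrp1.L and esrp1.S.

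Pair 2 gave the smallest fall, or a rise, for 9 of the 10 regulators. Over all genes tested the highest log2 ratio lay in pair 2 for 29.6%, and over the 852 genes that fell in the paired fit for 58.5%. The median log2 ratio of those 852 genes was −0.80, −0.56 and −0.80 in pairs 1, 2 and 3. The tp63.S ratios were −3.08, −1.57 and −3.01 and those of grhl3.S −0.80, −0.71 and −0.74 in pairs 1, 2 and 3, so both were nearest 0 in pair 2. In each pair tp63.S fell further than grhl3.S, with differences between the log2 ratios of −2.28, −0.86 and −2.28 in pairs 1, 2 and 3. This difference between genes was not tested.

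**Figure D4:**
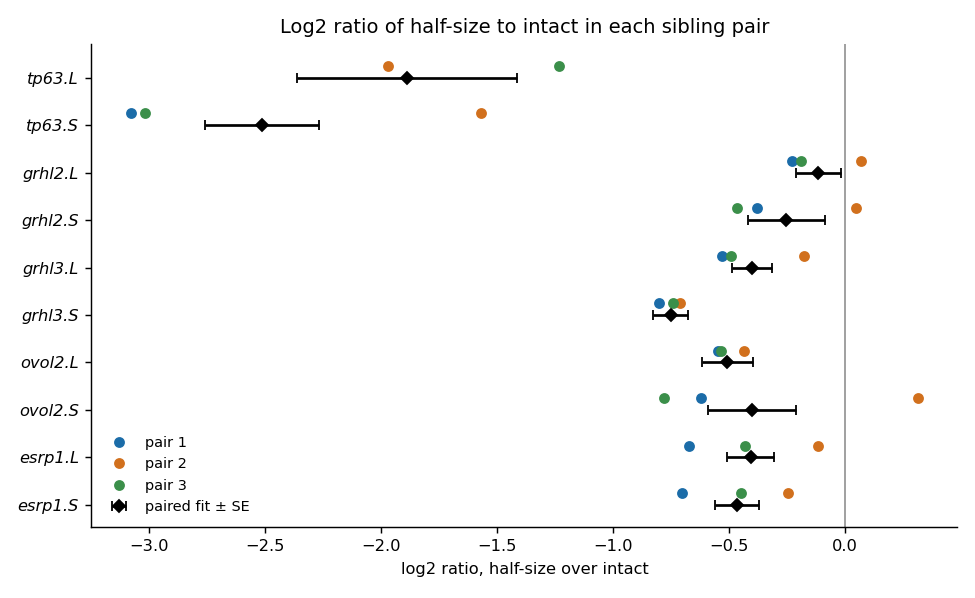
Log2 ratio of half-size to intact CPM in each pair (coloured points) and the log2 fold change of the paired fit with its SE (black diamonds) for the 10 regulators. The tp63.S values lie between −3.08 and −1.57, far below the other genes apart from tp63.L, whose pair 1 has no point because the half-size library had 0 counts; the pair 2 point is rightmost for every gene but tp63.L.

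The regulators had different orders over the replicates. Both tp63 and both grhl2 homeologs were highest in replicate 2 in either group. Both grhl3 and both ovol2 homeologs were highest in replicate 3 and lowest in replicate 2 in the intact group. Over the 6 libraries the log2 CPM of tp63.S had a Pearson r of 0.96 with esrp1.S, 0.71 with esrp1.L, 0.51 with grhl3.S and 0.03 with ovol2.S, and grhl3.L had an r of 0.94 with ovol2.L and −0.46 with grhl2.L. These are descriptions over 6 libraries that share the group and the pair.

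Likeness was measured against 8560 other named genes that averaged 5 CPM or more. Those whose log2 CPM followed tp63.S most closely over the 6 libraries were krt.S, a keratin gene, slc45a3.S, dkc1-like.L, acpp.L and slc19a2.L, with r between 0.985 and 0.996. Like tp63.S they were lower in each half-size library, and half-size replicate 2 was the highest of its group. The genes were chosen by r over these same libraries, so this shared shape follows from the choice and is no separate result. Their own changes were smaller, with paired log2 fold changes of −0.35, −0.78, −0.22, −1.22 and −0.62, and dkc1-like.L was not called (adjusted p = 0.0811). Closest to grhl3.S were dusp1.L, which encodes a MAP kinase phosphatase, fhl5.L, man1a1.L, mplkip.S and psmc6.L, with r between 0.981 and 0.991. Of these, fhl5.L and man1a1.L fell in the paired fit (log2 fold change −1.36 and −0.43, adjusted p = 0.000516 and 0.0426).

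Of the relatives of tp63 and their regulators, 5 rows are reported, and 0 were called in the paired fit, where 3.93% of all genes fell. Without pairing 0 were called as well. In this and the later lists, as over all genes tested, L and S homeologs of 1 gene are counted separately. The paired log2 fold changes were −0.47 for tp73.L and −0.78 for tp73.S, homeologs of a gene that works in multiciliated cells and stands in that marker list too. They were −0.36 for mdm2.S and 0.12 for mdm2.L, which encode a ubiquitin ligase, and 0.09 for its relative mdm4.S. A difference between these changes and that of tp63.S was not tested. The ovol relative ovol3 had at most 3 counts in a library for either homeolog.

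Some other transcription factors of the non-neural ectoderm fell, and most were not called. Of 24 tested and reported, 8 fell and 0 rose in the paired fit, beside 3.93% and 1.99% of all genes. Entries had been taken out of this list after the values were seen, so the counts cover only those that remain. The POU factor gene pou2f3.L, known for a role in mammalian epidermis, fell from 11.1 ± 0.811 to 2.98 ± 0.543 CPM (SD, n = 3, paired log2 fold change −1.90, adjusted p = 0.000516). The homeobox gene dlx3.S, which acts in non-neural ectoderm, fell from 59.9 ± 5.36 to 39.0 ± 10.5 CPM (SD, n = 3; −0.65, adjusted p = 0.0142), and msx2.L had a log2 fold change of −0.49 (adjusted p = 0.0112) with groups that overlapped and no call without replicate 2 (adjusted p = 0.0519). The highest count level reported for the list was that of the homeobox gene msx1.L, with a log2 fold change of −0.48 and no call (adjusted p = 0.0514). Its homeolog msx1.S was called (−0.44, adjusted p = 0.0499), but not without replicate 1 (adjusted p = 0.0696) or replicate 2 (adjusted p = 0.337).

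Genes of the basal layer and genes known as p63 targets in mammals were mostly not called. Of 20 tested, 3 fell and 0 rose, beside 3.93% and 1.99% of all genes, with a median log2 fold change of −0.17. The keratin genes krt5.7.L and krt5.7.S fell, the L homeolog from 1874 ± 284 to 1286 ± 299 CPM (SD, n = 3, adjusted p = 0.00256 with pairing) and the S homeolog from 2349 ± 271 to 1856 ± 275 CPM (SD, n = 3, adjusted p = 0.0157 with pairing). Without replicate 2 krt5.7.S was not called (adjusted p = 0.114). The paralog number was dropped in matching, so krt5.7 entered the list under krt5. In which cells its RNA lay was not tested, so its fall does not show the level of basal cells. The BMP ligand gene bmp7.1.S had a log2 fold change of −0.73 (adjusted p = 0.0268), which did not hold without replicate 2 (adjusted p = 0.0713) or replicate 3 (adjusted p = 0.138).

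Epithelial junction and surface genes, some of them known targets of grainyhead-like factors, moved both ways. Of 28 tested, 8 fell and 4 rose, beside 3.93% and 1.99% of all genes, with a median log2 fold change of −0.11. The larval keratin gene krt12.S fell from 811 ± 271 to 444 ± 209 CPM (SD, n = 3, paired log2 fold change −0.91, adjusted p = 0.000685), and the desmosome gene dsp.L from 525 ± 59.6 to 356 ± 21.9 CPM (SD, n = 3; −0.56, adjusted p = 0.00258). The tight junction gene cldn1.S fell by 3.01 on the log2 scale (adjusted p = 0.00498) at low counts, 124 in intact replicate 2, 9 and 15 in the other intact libraries and 0, 14 and 1 in half-size replicates 1, 2 and 3. Without replicate 2 cldn1.S did not pass the filter on low counts. The highest count level was that of krt8.L, which was not called (−0.11, adjusted p = 0.381). The 4 that rose, named here after their values were seen, were the keratin gene krt18.S (0.42), epcam.L (0.37) and epcam.S (0.36), which encode an epithelial adhesion protein, and the plakophilin gene pkp3.L (0.59). The homeolog pkp3.S fell (−0.66). The remaining rows that fell, also named after their values were seen, were ppl.S (−0.88), rab25.L (−0.61), krt12.L (−0.998) and the cadherin gene cdh1.S. The level of cdh1.S fell from 305 ± 25.3 to 237 ± 11.4 CPM (SD, n = 3; −0.36, adjusted p = 0.0251), and the groups did not overlap. Its call was lost without replicate 1 (adjusted p = 0.0529) or replicate 2 (adjusted p = 0.187). Without replicate 3, krt18.S, epcam.L, epcam.S and pkp3.S were not called (adjusted p = 0.0515, 0.0530, 0.0534 and 0.0749), and without replicate 2 neither were epcam.L and epcam.S (adjusted p = 0.183 and 0.0828).

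Genes of epithelial-mesenchymal transition, some of which ovol factors repress in mammals, were called once, beside 1.99% of all genes called as higher. By name, 5 of the 9 symbols of this list had rows. Those without a row were zeb1, zeb2, snai2 and cdh2, so the list covers ovol targets only in part. Of 8 tested, fn1.S, which encodes fibronectin, rose from 815 ± 246 to 1002 ± 317 CPM (SD, n = 3, paired log2 fold change 0.29, adjusted p = 0.0361), but not without replicate 2 (adjusted p = 0.249) or replicate 3 (adjusted p = 0.164). The median of the list was 0.12, and fn1.L and vim.L had 0.20 and 0.19 without a call.

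Some genes listed as markers of other epidermal cell types were lower in half-size embryos too. Of all genes tested, 3.93% fell and 1.99% rose. For multiciliated cells, 10 of 16 tested rows fell and 0 rose. These 10 were the L and S homeologs of ccno, foxj1, foxj1.2, foxn4 and myb. The paired log2 fold changes of ccno.L, ccno.S and foxn4.S were −1.36, −1.64 and −1.78. The summed level of the list was 225 to 276 CPM in intact and 156 to 170 CPM in half-size libraries. Neither homeolog of rfx2, rfx3 or tp73 was called. The highest mean levels of this list were those of rfx2.S and rfx2.L, 59.6 and 47.5 CPM. Every half-size library was above every intact one for rfx2.L (means of 52.1 and 42.9 CPM). In the list for goblet cells of the outer layer, 5 of 5 rows fell, among them itln1.L and agr2.L (−1.55 and −1.53). Sums were 657 to 1505 CPM in intact and 346 to 860 CPM in half-size libraries. The other rows were agr2.S, krt12.L and krt12.S, and both krt12 homeologs belong to the epithelial list too. In which cells the agr2 and krt12 RNA lay was not tested, so their fall does not show the level of goblet cells. For ionocytes, 2 of 4 rows fell, the homeologs foxi1.L and foxi1.S (−1.55 and −1.02). Not called were ca12.L (−0.61, adjusted p = 0.163 in the paired fit) and atp6v0d2.L (0.11, adjusted p = 0.838). Sums of this list were 35.7 to 74.7 CPM in intact and 20.4 to 35.9 CPM in half-size libraries. Small secretory cells had 0 of 3 called, with sums of 56.2 to 91.9 CPM and 59.8 to 85.2 CPM, and foxa1.L and foxa1.S at −0.0046 and −0.02. The other gene, ddc.L, averaged 1.17 CPM, so these sums are nearly those of foxa1. Which cells of the whole embryos held the foxa1 RNA was not tested, so the sums do not show the level of this cell type. Neural plate genes had 0 of 13 called, with sums of 767 to 1106 CPM in intact and 951 to 1063 CPM in half-size libraries and a median log2 fold change of 0.11. No tested or untested row of these 5 marker lists was at 0 in all libraries, and the part of these cell types in the changes of tp63 and the other regulators was not tested.

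**Figure D5:**
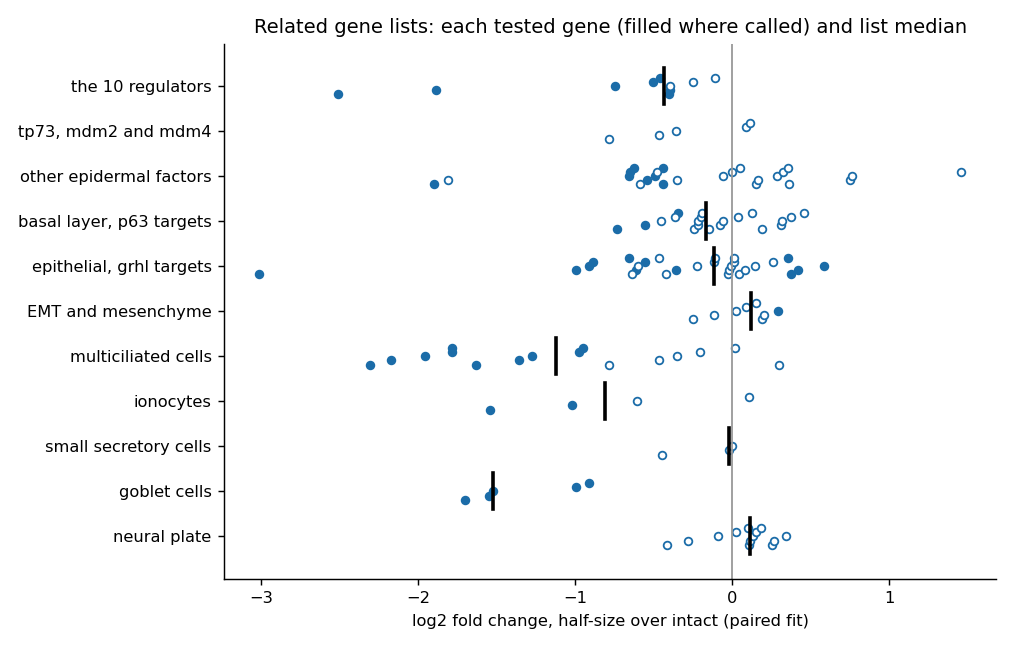
Log2 fold change of half-size over intact embryos in the paired fit for each tested gene of the related lists, filled where called, with the list median as a black bar (none for the list of tp73, mdm2 and mdm4 and that of other epidermal factors, from which entries were taken out); vertical offsets only separate points. The multiciliated and goblet lists have medians of −1.12 and −1.53, while the neural plate list has a median of 0.11.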

How the data were processed

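The deposited counts are raw whole numbers of reads for each gene and library. The submitters' processing notes name TopHat2, HTSeq and DESeq but neither their versions nor their roles. Genome build, annotation and use of strand in counting were not given in the sources used here, and no coordinates or sequences are printed. The library kit is a stranded one, per the labels' protocols. The authors' deposited table holds mean levels as a signal (counts divided by size factors, which recomputing matched to between 0.9999 and 1.0001 for the intact group over 19508 genes), a linear fold change, its log2, and p-values before and after adjustment.

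Counts were tested over all genes with edgeR 4.0.16 (glmQLFit and glmQLFTest, R 4.3.3), after TMM normalization and filterByExpr, which kept 21673 genes, with Benjamini-Hochberg adjustment and a threshold of 0.05; tests were two-sided. SEs of edgeR fold changes were worked back from the test, as the absolute log2 fold change divided by the square root of its F statistic. Group was the only term of the main model. The alternatives were the replicate number as a block, DESeq2 1.42.0, limma-voom (limma 3.58.1), DESeq2's size factors, no filter, homeologs summed, and leaving out libraries or pairs. The numbers pair the libraries: the study's design names siblings, and deviations from group means correlated at 0.74, 0.81 and 0.68 within numbers. Between numbers the correlations were −0.55 to −0.21. Centring on group means ties these to the values within numbers, so they are no separate support. Whether siblings or shared handling gave the correlations was not tested. Single-gene values are from the paired fit unless stated. Every pair of libraries differed by more than sampling noise (chi-square per degree of freedom of at least 13.3). The steps were tested on simulated data.

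The regulators and the lists were chosen with earlier results of these data known. Symbols were matched by name, for 5 of the 7 regulators and 76 of 118 list entries; further entries, in the lists of tp63 relatives and of other epidermal factors, are not reported here. They were taken out after the values were seen, so no medians are given for these lists, and their counts cover only the entries that remain. Named genes were every regulator, every tested relative of tp63, the 3 smallest paired p and the highest mean of each other list at a mean of at least 1 CPM, and the 5 genes most like tp63.S and grhl3.S. Other genes named in the lists, such as msx1.S, rfx2.L, atp6v0d2.L, agr2.S and the foxj1 and myb rows, were named outside this rule. Where nothing says that libraries came from separate parents, p-values measure only the spread between these libraries.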

Additional observations from a re-analysis of the deposited data

How the results depend on the processing

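Whether genes were called turned on the pairing of siblings. Without a block, edgeR called 0 genes with TMM, with DESeq2's size factors, without the low count filter, with homeologs summed and (range 0 to 0) with any 1 library left out, and limma-voom called 0, while DESeq2 called 52 genes and 1 of the 10 regulators, tp63.S. With the replicate block the number of genes called was 1283 in edgeR, 1271 with DESeq2's size factors, 2568 without the filter, 1044 with homeologs summed, 1118 in DESeq2 and 1364 in limma-voom, and 1471, 1055 and 507 without pair 1, 2 or 3. The regulators called with the block were 7, 7, 7, 4 (of 5 summed genes), 6 and 7 in the same order, and 2 to 6 with 1 pair left out. The cause of the differences between tools was not tested. Without the filter, edgeR with the block gave tp63.S an adjusted p of 2.86e-85, against 0.000613 with the filter. The cause was not tested, and calls of the unfiltered fit are listed but given no weight. Fits without the filter, with homeologs summed or with a pair left out tested other numbers of genes.

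With the block tp63.S was called under each of these alternatives that kept the homeologs apart. Its log2 fold change was −2.51 in edgeR, −2.50 with DESeq2's size factors and −2.50 without the filter. It was −2.55 in DESeq2 and −2.44 in limma-voom, and −2.21, −3.05 and −2.27 without pair 1, 2 or 3. DESeq2 without the block gave −2.25. For grhl3.S the blocked values, all called, were −0.75, −0.74, −0.73, −0.74 and −0.75 in that order, and −0.77 to −0.71 with 1 pair left out. With homeologs summed no homeolog has a row of its own. The blocked values of L plus S, both called, were −2.50 for tp63 and −0.55 for grhl3. Without the block and with 1 library left out, tp63.S and grhl3.S were not called, at −3.23 to −1.92 and −1.01 to −0.49. The sign of grhl2.L, never called, reversed without half-size replicate 1 (0.09), half-size replicate 3 (0.03) and intact replicate 2 (0.13), with −0.41 to 0.13 over all left-out libraries. Depth limited tp63.L, at 0 to 62 counts per library.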
